A study of Rattus norvegicus with 6 samples.

Results

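Glycolysis splits glucose into pyruvate in the cytosol. The pyruvate then either enters mitochondria to be oxidised or is reduced to lactate by lactate dehydrogenase, and lactate leaves or enters cells through monocarboxylate transporters. The hypoxia-inducible factors (HIF) are transcription factors whose alpha subunits are marked by oxygen-using prolyl hydroxylases and then removed through the VHL protein, so that low oxygen lets them accumulate and switch on glucose transporter, glycolytic and lactate-handling genes. In peripheral nerve, Schwann cells, the glia that wrap axons in myelin, are known to run glycolysis and to pass lactate to axons.

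The 41 genes described here were listed by symbol, with no threshold on their values but with earlier results of these data known, as glucose transporters, glycolytic enzymes, genes of lactate and pyruvate handling, HIF subunits and their control, and 5 genes known as HIF targets. All 41 were found among the 29884 genes of the count table. They were measured by RNA sequencing in sciatic nerve of wild type rats that carried a chronic constriction injury (CCI), a model made by tying loose threads about the nerve, which causes lasting pain. One group of 3 libraries came from injured nerve with no treatment named in the labels, and the other group of 3 from injured nerve after treatment with PLLA-PCL-RVC, a polymer nerve conduit described as piezoelectric and carrying the local anaesthetic ropivacaine. Both groups carry the injury. Uninjured nerve and a conduit without drug are not analysed here, and strain, age, sex and time after injury are not given in the labels. Nor do the labels say whether each library came from its own animal, so that each p-value weighs only how far these libraries scatter, which may be technical.

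Of the 41 members, 13 were higher and 11 lower in conduit nerves, and 17 did not pass the test (edgeR's quasi-likelihood test, Benjamini-Hochberg adjusted p under 0.05 over all 15464 genes tested). All 41 passed the low-count filter. The 24 called members make up 58.5% of the 41, beside 50.2% of all tested genes called in either direction, 24.0% higher and 26.2% lower. The share called is thus near that of all genes, and the median log2 fold change of the members was -0.13, beside -0.04 over all tested genes. Scaled by library totals instead of TMM, which normalises for make-up, all genes shifted by a median of -0.386, and higher genes made up 25.9% of calls in place of 47.8%. Members were then 11 higher and 14 lower, with no called member turned in sign. The module did not move as a block: Slc2a1 and Ldha, the genes that mark it, went in opposite directions. Pgk1, Pgam1, Eno1, Pkm and Ldha fell, while Aldoc, Pfkm, Ldhb, Slc16a1, Bsg, Mpc2 and Ndrg1 rose. In 27 of the 41 members every library of one group lay above every library of the other, as in 61.7% of all tested genes.

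**Figure D1:**
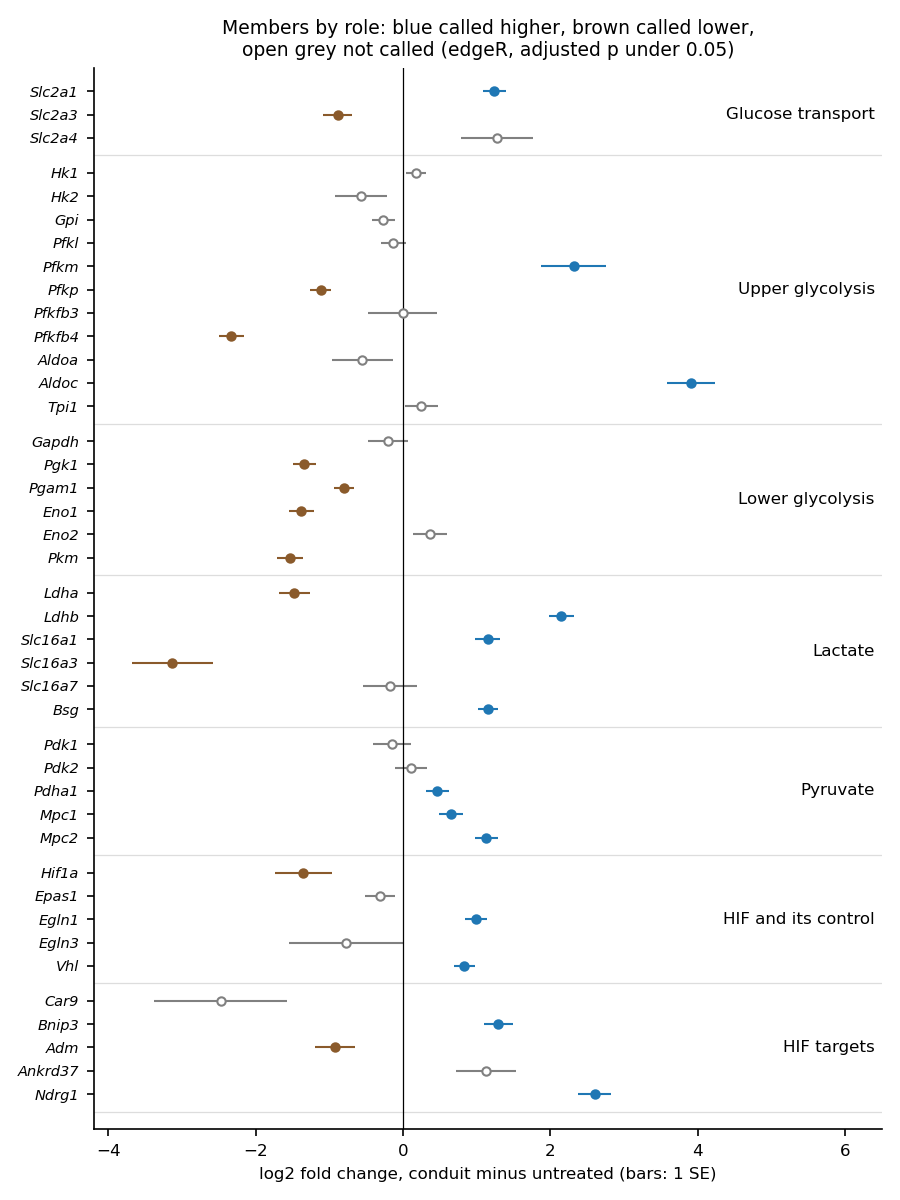
Log2 fold change of each of the 41 members (x axis, conduit minus untreated, edgeR; bars, 1 standard error), listed by role on the y axis. Blue points were called higher, brown points lower, and open grey points did not pass; Aldoc lies farthest to the right at 3.91 and Slc16a3 farthest to the left at -3.13.

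Depth was even, from 38401951 to 42225086 counts per library, of which the members took 0.771% to 1.01%. The make-up of the tissue was not. Genes in brackets below are the 2 most abundant of each list, whether or not they were called. Myelinating Schwann cell markers were present in every library, with all 7 genes used here higher in conduit nerves (led by Pmp22 and Mbp, summed level 4560 to 9890 CPM in untreated and 67360 to 82560 CPM in conduit libraries). All 9 macrophage markers were lower (led by Lyz2 and Mrc1, 2810 to 3390 CPM in untreated and 413 to 744 CPM in conduit libraries), as were 4 of 6 neutrophil markers (S100a9 and Csf3r, 48.7 to 105 CPM in untreated and 3.82 to 14.2 CPM in conduit libraries), 4 of 5 T cell markers (Cd3g and Cd3e, 8.46 to 15.5 CPM in untreated and 2.23 to 3.98 CPM in conduit libraries), 6 of 6 proliferation genes (Mki67 and Top2a, 211 to 272 CPM in untreated and 10.3 to 19.3 CPM in conduit libraries) and 6 of 8 repair Schwann cell genes, with 1 higher (Ngfr and Shh, 804 to 1293 CPM in untreated and 74.3 to 107 CPM in conduit libraries). Of the T cell markers, Cd3g did not pass (log2 fold change -0.88, adjusted p = 0.121). Of the repair Schwann cell genes, Olig1 was the higher one, and Ngfr and Shh were lower. Perineurial markers were higher in 4 of 5 genes, with Lypd2 at 0 counts in all libraries. Their summed level (Itgb4 and Tjp1) was 327 to 561 CPM in untreated and 1975 to 2555 CPM in conduit libraries. Skeletal muscle markers stood at 12580 CPM in untreated replicate 1, at 104 and 19.3 CPM in untreated replicates 2 and 3, and at 22.6 to 29.8 CPM in conduit libraries (9 of 14 lower, led by Acta1 and Ckm). Adipocyte markers were highest in conduit replicate 3, at 2702 CPM, while conduit replicates 1 and 2 had 789 and 913 CPM. Untreated libraries had 538 to 1510 CPM. Of the 7 genes, 3 were higher (Cidec, Lep and Lpl), and the most abundant, Cfd and Fabp4, did not pass. Endothelial markers were at 636 to 766 CPM in untreated and 651 to 768 CPM in conduit libraries. Of these 6 genes, Cldn5 was higher and Pecam1 lower. Fibroblast markers were at 5352 to 10010 CPM in untreated and 8794 to 17920 CPM in conduit libraries. Of these 6 genes, Col1a1 was higher and Pdgfra lower, while the abundant Dcn did not pass (adjusted p = 0.499). Erythrocyte genes (Hba-a1 and Hba-a2) were at 1773 to 5767 CPM in untreated and 1157 to 4951 CPM in conduit libraries. None of them passed in either direction (0 of 6). The summed ranges of the groups overlapped in the skeletal muscle, adipocyte, endothelial, fibroblast and erythrocyte lists, and in no other list. In bulk nerve, fewer cells of a type and less RNA per cell cannot be told apart, and the part of these shifts in the results below was not tested except where a value is given. The labels carry 5 batch numbers, of which none holds both groups, so batch and treatment cannot be told apart.

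Glucose enters nerve cells through transporters of the Slc2a family. Slc2a1, the basal transporter and a known component of the perineurial and endothelial barriers of nerve, was at 138, 119 and 147 CPM in untreated nerves, and 335, 344 and 274 CPM in conduit nerves. Every conduit library lay above every untreated library, a 2.36-fold rise (log2 fold change 1.24 ± 0.15 SE, adjusted p = 0.000623). The perineurial markers, whose summed level is given above, rose with it, and so did all 7 myelinating Schwann cell markers. The part of either in the rise of Slc2a1 was not tested. Slc2a3, a high-affinity transporter of neurons and white blood cells, went the other way, from 33.8, 38.6 and 36.7 CPM in untreated to 16.7, 16.4 and 25.9 CPM in conduit libraries (1.85-fold lower, log2 fold change -0.89 ± 0.20 SE, adjusted p = 0.00794). Slc2a4, the insulin-responsive transporter of muscle and fat, was at 21.2, 5.13 and 11.4 CPM in untreated nerves, and 22.7, 25.3 and 43.5 CPM in conduit nerves. The groups did not overlap, but the gene did not pass (log2 fold change 1.28 ± 0.49 SE, adjusted p = 0.0640). Its highest untreated value stood in the library with the muscle transcripts and its highest conduit value in the one with the most adipocyte transcripts. Without untreated replicate 1 it passed at 1.88 (adjusted p = 0.0129). On the FPKM scale, which divides by gene length and so allows genes to be compared, Slc2a1 made up 80.03 ± 2.56% of the 3 transporters' summed FPKM in untreated and 88.1 ± 4.96% in conduit nerves (SD, n = 3).

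The short stretch of DNA before a gene's start is where HIF binds in several genes of glycolysis. Its core is read as ACGTG or GCGTG on either strand, and 250 bases before the first listed start were searched in the RefSeq promoter table (GRCr8 build, whereas the counts were made with mRatBN7.2). Of the 41 members, 37 were in the table (Slc2a3, Slc2a4, Pgk1 and Ndrg1 were not). The following 5 stretches are shown because they belong to the genes that mark the module and to members of the lactate and aldolase steps that moved strongly in either direction. They do not stand for all members: 4 of the 5 hold a motif, and 14 of the 37 matched members hold none. Each runs 5′ to 3′ on the gene's strand and ends at the base before the start, with the motif letters in capitals (on the opposite strand the motifs read CACGT and CACGC).
Ldha, chr1:106507842-106508091 (plus strand), fell: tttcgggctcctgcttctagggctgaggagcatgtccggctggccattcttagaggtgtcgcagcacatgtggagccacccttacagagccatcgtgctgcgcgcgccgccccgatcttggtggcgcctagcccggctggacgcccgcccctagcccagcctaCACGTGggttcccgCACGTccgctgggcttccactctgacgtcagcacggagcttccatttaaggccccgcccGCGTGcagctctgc
Slc16a3, chr10:106712078-106712327 (plus strand), fell: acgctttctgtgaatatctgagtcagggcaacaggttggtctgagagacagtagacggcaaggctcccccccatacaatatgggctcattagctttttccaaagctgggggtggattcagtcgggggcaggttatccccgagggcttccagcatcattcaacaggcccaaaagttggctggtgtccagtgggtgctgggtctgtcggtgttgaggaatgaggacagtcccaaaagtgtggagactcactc
Ldhb, chr4:177177409-177177658 (minus strand), rose: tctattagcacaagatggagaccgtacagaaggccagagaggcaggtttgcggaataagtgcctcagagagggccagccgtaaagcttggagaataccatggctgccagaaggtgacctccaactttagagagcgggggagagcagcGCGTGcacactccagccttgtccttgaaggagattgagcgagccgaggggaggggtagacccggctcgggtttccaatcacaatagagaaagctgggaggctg
Aldoc, chr10:63715294-63715543 (plus strand), rose: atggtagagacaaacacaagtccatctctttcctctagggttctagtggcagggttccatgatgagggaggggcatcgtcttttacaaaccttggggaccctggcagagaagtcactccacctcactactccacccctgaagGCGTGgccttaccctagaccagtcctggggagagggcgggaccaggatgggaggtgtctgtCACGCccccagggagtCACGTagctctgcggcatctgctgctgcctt
Slc2a1, chr5:138002272-138002521 (plus strand), rose: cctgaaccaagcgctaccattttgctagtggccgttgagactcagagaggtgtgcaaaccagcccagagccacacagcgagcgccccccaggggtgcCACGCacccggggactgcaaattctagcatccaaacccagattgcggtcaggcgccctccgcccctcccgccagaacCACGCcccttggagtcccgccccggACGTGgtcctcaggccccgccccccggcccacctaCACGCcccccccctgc

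Ldha held ACGTG at 3 places counted over both strands, 2 of them on opposite strands of 1 palindrome, and GCGTG once. Slc2a1 and Aldoc held ACGTG once each, with GCGTG at 3 and 2 places. Ldhb held GCGTG once and no ACGTG, and Slc16a3 held neither. Over all matched members, ACGTG was found in 15 of 37 stretches (40.5%), beside 16.9% of the 27457 stretches of all genes in the table, and either motif in 23 (62.2%), beside 37.9%. The motif stood before members of every behaviour: ACGTG before 6 of 12 that rose, 3 of 9 that fell and 6 of 16 that did not pass. Either motif stood before 10, 5 and 8 of these. A match is a description of the letters, not of binding, and base composition was not compared.

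Upper glycolysis, from hexokinase to triose phosphate isomerase, had 2 of 11 members higher and 2 lower, with a median log2 fold change of -0.13. That is 36.4% called, beside 50.2% of all tested genes. Hexokinase traps glucose in the cell. Hk1, the form of most tissues, was at 138 ± 12.2 CPM in untreated and 156 ± 16.03 CPM in conduit nerves (log2 fold change 0.18 ± 0.14 SE, adjusted p = 0.315), and Hk2, the inducible form, at 14.3 ± 6.14 CPM in untreated and 9.63 ± 3.30 CPM in conduit nerves (log2 fold change -0.57 ± 0.35 SE, adjusted p = 0.218). Neither passed, and the libraries overlapped in both. Gpi, glucose phosphate isomerase (-0.27 ± 0.15, adjusted p = 0.183), and Tpi1, triose phosphate isomerase (0.24 ± 0.22, adjusted p = 0.392), did not pass either. Gpi passed as lower in 5 of 16 alternatives: by library totals (-0.65, adjusted p = 0.00712), in the 3 limma fits on FPKM, and with TMM without untreated replicate 2 (-0.38, adjusted p = 0.0456). Tpi1 was at 434, 251 and 287 CPM in untreated nerves, and 433, 359 and 359.9 CPM in conduit nerves, highest among untreated libraries in the one with the muscle transcripts, and passed as higher without it (0.51, adjusted p = 0.0452).

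Phosphofructokinase is the gate of glycolysis, and its 3 genes parted. Pfkm, the form known from muscle, was at 95.1, 28.1 and 37.1 CPM in untreated nerves, and 275, 272 and 251 CPM in conduit nerves. All conduit libraries lay above all untreated ones, and the highest untreated value was in replicate 1, which also held the muscle transcripts. The rise was 4.98-fold (log2 fold change 2.32 ± 0.44 SE, adjusted p = 0.00398), and 3.03 on the log2 scale without that library. Pfkp, the platelet form, was at 23.5, 25.001 and 25.1 CPM in untreated nerves, and 12.1, 11.9 and 9.82 CPM in conduit nerves, a 2.17-fold fall (log2 fold change -1.12 ± 0.14 SE, adjusted p = 0.000627). Pfkl, the liver form, was at 51.6 ± 9.59 CPM in untreated and 47.1 ± 6.72 CPM in conduit nerves and did not pass (log2 fold change -0.13 ± 0.17 SE, adjusted p = 0.552). By FPKM, Pfkm thus made up 82.3 ± 2.42% of the 3 forms in conduit nerves and 41.2 ± 17.8% in untreated nerves, where Pfkl held 48.2 ± 15.6% (SD, n = 3). In untreated replicate 2 Pfkm held 25.8% and in untreated replicate 1 60.7%. The Pfkm/Pfkl ratio of FPKM was 1.92, 0.412 and 0.736 in the untreated libraries and 6.03, 5.59 and 4.23 in the conduit libraries. It did not overlap between the groups (exact permutation test, two-sided, p = 0.1, the smallest that 3 against 3 libraries allow, and 0.125 adjusted over the 10 ratios examined). The Pfkp/Pfkl ratio was 0.239, 0.185 and 0.251 in untreated and 0.134, 0.124 and 0.0834 in conduit libraries, also without overlap (exact permutation p = 0.1).

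**Figure D2:**
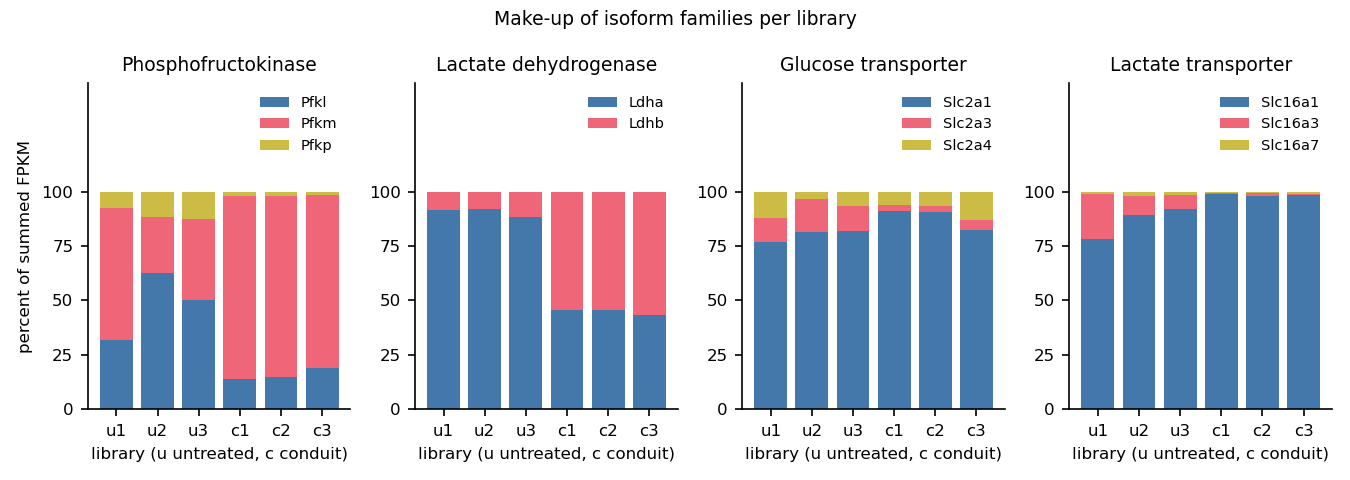
Share of each form in the summed FPKM of its family (y axis, percent) in each library (x axis: u1 to u3, untreated replicates; c1 to c3, conduit replicates). Ldhb holds 7.75% to 11.7% of the lactate dehydrogenase bar in untreated libraries and 54.4% to 56.9% in conduit libraries, and Pfkm 79.6% to 84.2% of the phosphofructokinase bar in conduit libraries.

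Pfkfb3 and Pfkfb4 make two-way enzymes that set the level of a sugar phosphate which activates phosphofructokinase. Pfkfb4 was at 37.5, 27.7 and 30.9 CPM in untreated nerves, and 6.54, 5.65 and 6.86 CPM in conduit nerves, a 5.04-fold fall with no overlap (log2 fold change -2.33 ± 0.17 SE, adjusted p = 0.000103). Pfkfb3 was at 29.2, 40.8 and 48.7 CPM in untreated nerves, and 19.8, 25.4 and 72.8 CPM in conduit nerves. One library, conduit replicate 3, lay above all others, and the group means were level (-0.0085 ± 0.47, adjusted p = 0.990). Without that library, the one with the most adipocyte transcripts, Pfkfb3 was at -0.77 and passed as lower (adjusted p = 0.0475).

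Aldolase splits the sugar phosphate chain. Aldoc, the form known from brain and glia, had the highest fold change of all members. It was at 9.35, 5.27 and 11.5 CPM in untreated nerves, and 111, 167 and 115 CPM in conduit nerves, 15.1-fold higher (log2 fold change 3.91 ± 0.33 SE, adjusted p = 0.000141). The groups lay far apart, with the highest untreated value at 11.5 CPM and the lowest conduit value at 111 CPM. Aldoa, the main aldolase of most tissues, was counted at only 1.95, 2.65 and 1.38 CPM in untreated nerves, and 0.797, 1.78 and 1.49 CPM in conduit nerves (-0.55 ± 0.42, adjusted p = 0.301). That is far below the neighbouring enzymes of the chain: 0.737 ± 0.271 FPKM in conduit nerves beside 232 ± 25.1 FPKM for Tpi1 and 105 ± 8.32 FPKM for Gpi (SD, n = 3). Whether reads of this gene were lost or assigned elsewhere in the counting was not tested, so neither its level nor its ratio to Aldoc is read further.

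Lower glycolysis, from glyceraldehyde phosphate to pyruvate, had 4 of 6 members lower and 0 higher, with a median log2 fold change of -1.07. That is 66.7% called, beside 50.2% of all tested genes (26.2% lower), and rests on few genes. Pgk1, phosphoglycerate kinase and the first ATP-yielding step, was at 479.8, 443 and 357 CPM in untreated nerves, and 169.6, 174 and 162 CPM in conduit nerves (2.53-fold lower, log2 fold change -1.34 ± 0.15 SE, adjusted p = 0.000437). Pgam1, phosphoglycerate mutase, was at 341, 352 and 285 CPM in untreated nerves, and 192, 181 and 185 CPM in conduit nerves (1.75-fold lower, log2 fold change -0.81 ± 0.14 SE, adjusted p = 0.00237). In both, every untreated library lay above every conduit library, and the conduit libraries were close to each other. Eno1, the enolase of most cells, was at 558, 677 and 472 CPM in untreated nerves, and 206, 213 and 235 CPM in conduit nerves (2.61-fold lower, log2 fold change -1.38 ± 0.17 SE, adjusted p = 0.000606). Pkm, pyruvate kinase of muscle and most dividing cells, was at 716, 672 and 498 CPM in untreated nerves, and 211, 214 and 226 CPM in conduit nerves (2.90-fold lower, log2 fold change -1.53 ± 0.17 SE, adjusted p = 0.000414). Both again parted the groups without overlap, and untreated replicate 3 was the lowest of its group in all 4 genes. Without untreated replicate 1, the library with the muscle transcripts, the 4 log2 fold changes were -1.25, -0.78, -1.40 and -1.43. The falls were thus present without it. Macrophage and proliferation markers, by their summed levels, were lower in every conduit library. Leaving out a library cannot bear on that shift, and its part in the falls was not tested.

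The remaining members of this stretch did not pass. Gapdh, glyceraldehyde phosphate dehydrogenase, often used as a reference gene, was at 1713, 967 and 838 CPM in untreated nerves, and 1133, 979 and 945 CPM in conduit nerves. The groups overlapped, and the gene did not pass (log2 fold change -0.20 ± 0.27 SE, adjusted p = 0.567). Its highest value stood in the library with the muscle transcripts, and without it the sign turned (0.17, adjusted p = 0.464). Eno2, the enolase of neurons and neuroendocrine cells, was at 117 ± 33.3 CPM in untreated and 151 ± 21.2 CPM in conduit nerves (log2 fold change 0.36 ± 0.23 SE, adjusted p = 0.221). With Eno1 lower and Eno2 not called, the Eno2/Eno1 ratio of FPKM was 0.179, 0.180 and 0.143 in untreated and 0.683, 0.499 and 0.527 in conduit libraries. The enolase balance therefore differed 3.40-fold without overlap (exact permutation test, p = 0.1, 0.125 adjusted over the 10 ratios). The muscle forms of the chain marked untreated replicate 1: Eno3 was at 264 CPM there and at 4.52 and 3.61 CPM in the other untreated libraries, and 3.22, 2.85 and 2.46 CPM in the conduit libraries. Its call (-4.99 ± 1.67, adjusted p = 0.0398) was lost in 9 of 14 alternatives (highest adjusted p = 0.276), among them without that library (-0.52, adjusted p = 0.179) and without conduit replicate 1, 2 or 3 (adjusted p = 0.103, 0.110 and 0.107). Pgam2 and Pygm, the muscle mutase and glycogen phosphorylase, did not pass (-4.73 ± 1.89 and -4.07 ± 1.67, adjusted p = 0.0716 and 0.0781), and stood at 0.89 and 0.81 without it (adjusted p = 0.196 and 0.0437).

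Lactate handling had 3 of 6 members higher and 2 lower (83.3% called, beside 50.2% of all tested genes). Forms of the same family moved in opposite directions. Ldha encodes the subunit of lactate dehydrogenase known to favour making lactate from pyruvate, and Ldhb the subunit known from heart and from cells that take lactate up. Ldha was at 1558, 1185 and 932 CPM in untreated nerves, and 458, 470.1 and 391 CPM in conduit nerves, a 2.79-fold fall (log2 fold change -1.48 ± 0.21 SE, adjusted p = 0.00120). Ldhb was at 109, 74.9 and 93.2 CPM in untreated nerves, and 411, 423 and 389 CPM in conduit nerves, a 4.42-fold rise (log2 fold change 2.14 ± 0.17 SE, adjusted p = 0.000126). Neither gene overlapped between the groups, and both kept their call in all 16 alternatives, including each library left out. By FPKM, Ldha exceeded Ldhb 10.8, 11.9 and 7.54 times in the untreated libraries and stood at 0.839, 0.836 and 0.757 times Ldhb in the conduit libraries. The ratio was thus above 1 in every untreated and below 1 in every conduit library, 12.2-fold apart (exact permutation test, p = 0.1, 0.125 adjusted over the 10 ratios). This ratio is taken within a library and does not depend on how libraries are scaled. With each library left out in turn the Ldha/Ldhb log2 difference ran from -3.81 to -3.48. Neither check bears on the shifts in tissue make-up given above, whose part in this ratio was not tested.

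**Figure D3:**
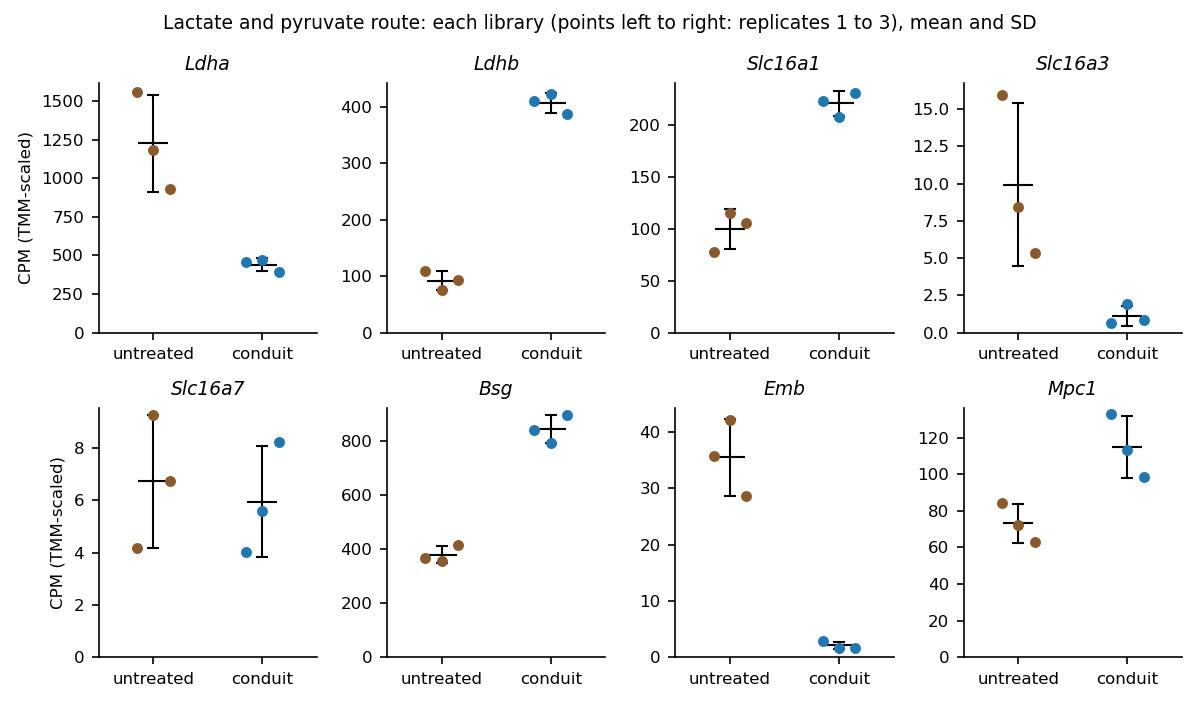
CPM after TMM scaling (y axis, from 0) of 8 genes of lactate and pyruvate transport and conversion in each untreated (brown) and conduit (blue) library; the bar marks the mean and whiskers the SD of 3 libraries. Ldha, Slc16a3 and Emb are lower, and Ldhb, Slc16a1, Bsg and Mpc1 higher, in every conduit library, while Slc16a7 overlaps.

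The lactate transporters parted too. Slc16a1, a monocarboxylate transporter used by glia and many tissues to move lactate in either direction, was at 78.1, 115 and 106 CPM in untreated nerves, and 224, 208 and 232 CPM in conduit nerves (2.22-fold higher, log2 fold change 1.15 ± 0.17 SE, adjusted p = 0.00134). Slc16a3, the transporter known from lactate-exporting glycolytic cells and white muscle, was at 15.97, 8.44 and 5.36 CPM in untreated nerves, and 0.660, 1.89 and 0.838 CPM in conduit nerves (8.78-fold lower, log2 fold change -3.13 ± 0.55 SE, adjusted p = 0.00292). Its untreated value was highest in replicate 1, which held the muscle transcripts, and without that library the fall was 2.61 on the log2 scale. The conduit libraries held few Slc16a3 counts (24, 67 and 32). Macrophage and neutrophil markers fell as well, and their part was not tested. Slc16a7, a high-affinity transporter of neurons, was low and overlapped, at 6.71 ± 2.54 CPM in untreated and 5.94 ± 2.11 CPM in conduit nerves (log2 fold change -0.18 ± 0.37 SE, adjusted p = 0.714). The Slc16a3/Slc16a1 ratio of FPKM was 0.263, 0.0943 and 0.0654 in untreated and 0.00380, 0.0117 and 0.00466 in conduit libraries, with no overlap (exact permutation test, p = 0.1, 0.125 adjusted).

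Both Slc16a1 and Slc16a3 proteins need basigin to reach the cell surface. Bsg, its gene, was at 368, 357 and 415 CPM in untreated nerves, and 844, 796 and 898 CPM in conduit nerves (2.23-fold higher, log2 fold change 1.15 ± 0.14 SE, adjusted p = 0.000525). It rose together with Slc16a1 in all conduit libraries. Emb (embigin), a related chaperone of monocarboxylate transporters and no member of the list, went from 35.8, 42.1 and 28.6 CPM to 2.89, 1.72 and 1.75 CPM (16.7-fold lower, log2 fold change -4.06 ± 0.27 SE, adjusted p = 8.56e-05). The pair of chaperones thus moved in opposite directions.

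Pyruvate entry into mitochondria had 3 of 5 members higher and 0 lower (60% called, beside 50.2% of all tested genes). Mpc1 and Mpc2 encode the 2 subunits of the mitochondrial pyruvate carrier. Mpc2 was at 60.6, 55.9 and 63.3 CPM in untreated nerves, and 157, 125 and 111 CPM in conduit nerves (2.19-fold higher, log2 fold change 1.13 ± 0.16 SE, adjusted p = 0.000994), and Mpc1 at 84.4, 72.1 and 62.8 CPM in untreated nerves, and 133, 113 and 98.5 CPM in conduit nerves (1.57-fold higher, log2 fold change 0.65 ± 0.17 SE, adjusted p = 0.0138). Both subunits were higher in every conduit library, Mpc1 by less. Mpc1 lost its call in 4 of 16 alternatives (highest adjusted p = 0.22), among them scaling by library totals (0.26, adjusted p = 0.187). Pdha1, a subunit of the pyruvate dehydrogenase complex that feeds the citric acid cycle, was at 92.6, 119 and 91.8 CPM in untreated nerves, and 131, 132 and 156 CPM in conduit nerves (log2 fold change 0.47 ± 0.15 SE, adjusted p = 0.0372). The gap between the groups was narrow, and the call was lost under 10 of 16 alternatives, with adjusted p = 0.101 without untreated replicate 1, 0.1 without untreated replicate 3, and 0.0662, 0.0765 and 0.0997 without conduit replicates 1, 2 and 3. Pdk1 and Pdk2, kinases that switch the complex off, were at 11.4 ± 1.92 CPM in untreated and 10.2 ± 3.17 CPM in conduit nerves (-0.15 ± 0.25, adjusted p = 0.650) and at 45.5 ± 13.9 CPM in untreated and 48.97 ± 3.29 CPM in conduit nerves (0.11 ± 0.22, adjusted p = 0.707). Neither passed, and the Pdk1/Pdk2 ratio overlapped between the groups (exact permutation p = 0.5).

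**Figure D4:**
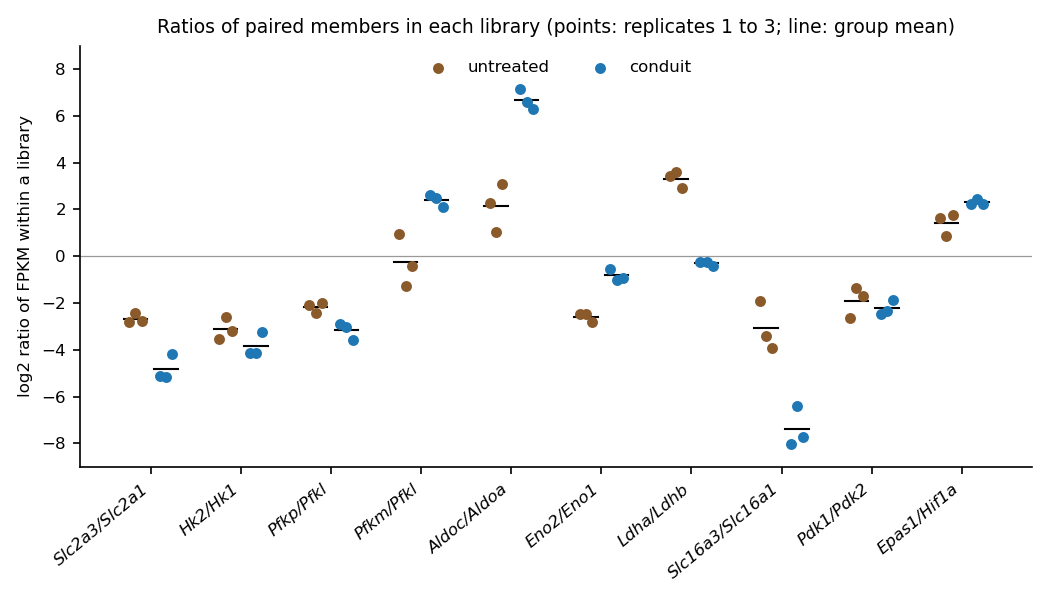
Log2 ratio of FPKM of paired members within each library (y axis), for 10 pairs (x axis), in untreated (brown) and conduit (blue) libraries, with the group mean as a line. Of the 10 ratios, 8 do not overlap between the groups, while Hk2/Hk1 and Pdk1/Pdk2 do. Among all tested genes taken singly, 61.7% do not overlap in CPM. The share among other gene pairs was not examined. The Aldoc/Aldoa ratio rests on the low Aldoa counts described in the text.

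HIF and its control had 2 of 5 members higher and 1 lower (60% called, beside 50.2% of all tested genes). Hif1a, the alpha subunit found in most cells, was at 125, 322 and 117 CPM in untreated nerves, and 66.3, 75.4 and 78.9 CPM in conduit nerves (2.56-fold lower, log2 fold change -1.36 ± 0.39 SE, adjusted p = 0.0219). Untreated replicate 2 was far above the other untreated libraries, and without it the fall was 0.72 on the log2 scale. With conduit replicate 1, 2 or 3 left out it was no longer called (adjusted p = 0.0767, 0.0688 and 0.0597). Epas1, the alpha subunit prominent in endothelium, was at 587 ± 140.3 CPM in untreated and 471 ± 60.9 CPM in conduit nerves and did not pass (log2 fold change -0.32 ± 0.20 SE, adjusted p = 0.226). It passed as lower only where libraries were scaled by their totals or by FPKM (-0.71 with totals, adjusted p = 0.0249). The Epas1/Hif1a ratio of FPKM was 3.11, 1.79 and 3.33 in untreated and 4.71, 5.37 and 4.72 in conduit libraries, without overlap (exact permutation p = 0.1). Since HIF alpha is set mainly by how fast the protein is removed, these RNA levels are not levels of HIF protein.

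Of the 3 genes that act in removing HIF alpha, 2 were higher. Egln1, the main prolyl hydroxylase that senses oxygen, was at 89.4, 67.5 and 75.9 CPM in untreated nerves, and 168, 152 and 140.1 CPM in conduit nerves (1.98-fold higher, log2 fold change 0.98 ± 0.15 SE, adjusted p = 0.00152). Vhl, which carries marked HIF alpha to degradation, was at 40.1, 36.1 and 41.2 CPM in untreated nerves, and 74.6, 76.3 and 57.99 CPM in conduit nerves (1.78-fold higher, log2 fold change 0.83 ± 0.14 SE, adjusted p = 0.00259). Neither overlapped between the groups. Egln3, a hydroxylase that is itself a HIF target, was at 25.1, 2.91 and 3.54 CPM in untreated nerves, and 6.19, 6.61 and 5.61 CPM in conduit nerves. The untreated mean rested on replicate 1, which held the muscle transcripts. The gene did not pass with all libraries (-0.78 ± 0.77, adjusted p = 0.434) and was called higher in conduit nerves without it (0.93, adjusted p = 0.0215).

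**Figure D5:**
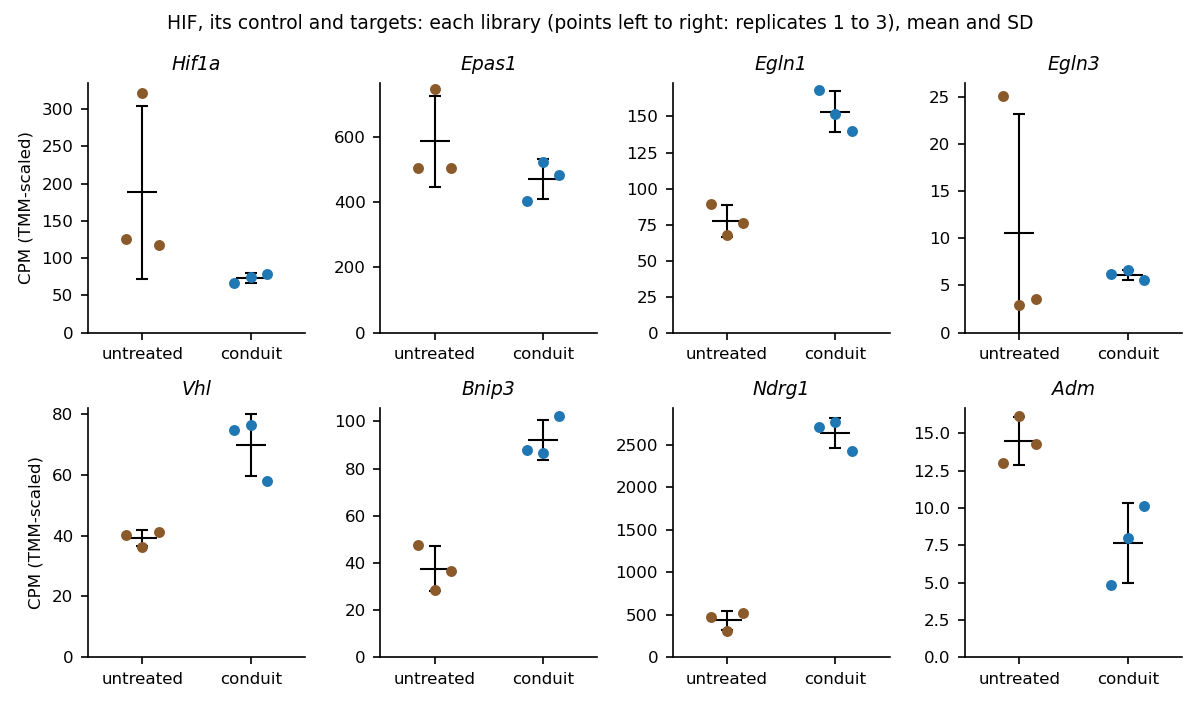
CPM after TMM scaling (y axis, from 0) of 5 HIF pathway genes and 3 HIF targets in each untreated (brown) and conduit (blue) library, with mean and SD of 3 libraries; the lower SD whisker of Egln3 ends at the axis. Hif1a is high in untreated replicate 2 and Egln3 in untreated replicate 1, while Egln1, Vhl, Bnip3 and Ndrg1 are higher in every conduit library.

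The 5 members listed under HIF targets split, 2 higher and 1 lower (60% called, beside 50.2% of all tested genes). They are not all HIF targets of the list. Glucose transporter, glycolytic and lactate genes that HIF can switch on are counted under their own roles above, and moved in both directions. Ndrg1, known both as a HIF target and as a gene that myelinating Schwann cells need, was at 469, 307 and 526 CPM in untreated nerves, and 2704, 2759.7 and 2429.5 CPM in conduit nerves. It was 6.06-fold higher (log2 fold change 2.60 ± 0.23 SE, adjusted p = 0.000158) and by FPKM the most abundant of all members in conduit nerves, at 767 ± 29.2 FPKM (SD, n = 3). Myelinating Schwann cell markers, 7 of 7, rose as well, and their part in the rise was not tested. Bnip3, which directs mitochondria to breakdown, was at 47.6, 28.5 and 36.7 CPM in untreated nerves, and 87.9, 86.5 and 102 CPM in conduit nerves (2.45-fold higher, log2 fold change 1.29 ± 0.20 SE, adjusted p = 0.00152). Adm, adrenomedullin, a vessel-widening peptide, was at 13.01, 16.2 and 14.3 CPM in untreated nerves, and 4.84, 7.97 and 10.2 CPM in conduit nerves (1.89-fold lower, log2 fold change -0.92 ± 0.27 SE, adjusted p = 0.0257). The call for Adm was lost without untreated replicate 2 or 3 or conduit replicate 2 (adjusted p = 0.0640, 0.0562 and 0.0694). Car9 and Ankrd37, a carbonic anhydrase and an ankyrin repeat protein both known to follow HIF closely, were low. Car9 had 34, 37 and 10 counts in untreated and 0, 7 and 4 in conduit libraries (-2.48 ± 0.90, adjusted p = 0.0533), and Ankrd37 was at 0.984 ± 0.408 CPM in untreated and 2.15 ± 0.554 CPM in conduit nerves (1.13 ± 0.41, adjusted p = 0.0547). Neither passed, and neither overlapped between the groups. Car9 passed as lower in 4 of 13 alternatives (lowest adjusted p = 0.0286, by library totals) and Ankrd37 as higher in 3 of 15 (lowest adjusted p = 0.0235, with DESeq2).

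The other genes of the pathway, listed by role, moved in both directions: of 101 genes, 95 were tested, 26 were higher and 23 lower (51.6% called, beside 50.2% of all tested genes), with a median log2 fold change of -0.03. The balance depended on the scaling, with 17 higher and 42 lower by library totals and 16 and 39 by limma on FPKM. Without conduit replicate 2, 14 were lower. In glycolysis and its branches, 7 of 30 tested were higher and 8 lower (50% called). Gpd1, which diverts a glycolytic intermediate to glycerol phosphate for lipid synthesis, went from 36.6, 45.4 and 76.995 to 341, 358 and 487 CPM (log2 fold change 2.90 ± 0.31 SE, adjusted p = 0.000348). In each group its highest value stood in replicate 3, which held the most adipocyte transcripts of that group (1510 CPM in untreated, 2702 CPM in conduit). The part of adipocyte transcripts in the rise was not tested. Hkdc1, a hexokinase-like gene (3.22 ± 0.68), and Ldhd, a dehydrogenase of the mirror-image form of lactate (1.55 ± 0.19), also rose, both from low levels. Hk3, the hexokinase of white blood cells, went from 21.1, 19.7 and 7.32 to 0.495, 0.226 and 0.183 CPM (log2 fold change -5.72 ± 0.57 SE, adjusted p = 0.000261), beside the lower macrophage and neutrophil markers. Pgm2, a phosphoglucomutase, fell (-1.26 ± 0.21).

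In pyruvate oxidation and the shuttles around it, 6 of 20 were higher and 7 lower (65% called, beside 50.2% of all tested genes). Pc, pyruvate carboxylase, was at 21.3, 29.2 and 35.9 CPM in untreated nerves, and 71.1, 70.4 and 221 CPM in conduit nerves. The highest value was in conduit replicate 3, which held the most adipocyte transcripts, and without it the log2 fold change was 1.34 (2.07 ± 0.48, adjusted p = 0.00933, with all libraries). The malic enzymes moved apart: Me1, the cytosolic form that supplies reducing power for lipid synthesis, rose from 42.8 ± 5.15 to 133 ± 10.4 CPM (1.63 ± 0.14), and Me2, a mitochondrial form, fell from 84.5 ± 12.4 to 21.2 ± 1.33 CPM (-1.99 ± 0.14). Pdp2, a phosphatase that switches pyruvate dehydrogenase on, rose (0.99 ± 0.18), and Got1, an aminotransferase of the malate-aspartate shuttle, fell (-0.998 ± 0.15). Pc and Pdp2 each lost their call in 1 of 16 alternatives, limma on FPKM without a filter (adjusted p = 0.0789 and 0.0602).

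Among HIF regulators 3 of 15 were higher and 1 lower (26.7% called, below the 50.2% of all tested genes). Hif3a, a HIF alpha relative whose short forms are known to hold HIF back, had 0, 1 and 9 counts in the untreated and 104, 284 and 178 in the conduit libraries (6.09 ± 0.97, adjusted p = 0.00192). Siah1, a ubiquitin ligase of the hydroxylases, rose (0.91 ± 0.15; adjusted p = 0.0765 by limma on FPKM without a filter, 1 of 16 alternatives), and Cited2, which competes with HIF for its coactivators, fell (-1.10 ± 0.25). Arnt, the shared partner of the alpha subunits, did not pass (-0.031 ± 0.18, adjusted p = 0.901). Among further HIF targets 10 of 30 tested were higher and 7 lower (56.7% called). Ddit4, a stress-induced brake on mTOR signalling, went from 28.5, 17.8 and 44.3 to 183, 221 and 268 CPM (log2 fold change 2.89 ± 0.34 SE, adjusted p = 0.000513), and Kdm4b, a histone demethylase (1.68 ± 0.18), and Ppfia4, a liprin (2.13 ± 0.42), rose. Hmox1, heme oxygenase, abundant in iron-handling macrophages, went from 179, 717 and 319 to 17.5, 15.04 and 14.4 CPM (log2 fold change -4.70 ± 0.52 SE, adjusted p = 0.000401), highest in untreated replicate 2, as Hif1a was. Angptl4 (-1.76 ± 0.30), a lipase inhibitor, fell. Vegfa, the classic HIF-driven growth factor of vessels, was at 14.9 ± 2.89 CPM in untreated and 15.6 ± 4.49 CPM in conduit nerves (0.062 ± 0.24, adjusted p = 0.848); Arnt and Vegfa were named for their roles after their values were seen.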

How the data were processed

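The authors deposited raw counts per gene and FPKM (fragments scaled by gene length and library total) for every library. The build mRatBN7.2 and the tools HISAT2, fastp, DESeq2 and HTSeq come from the submitters' processing notes; their versions and roles are not given in the sources used here. A single gene length reproduced every FPKM from its count in each of 20504 genes where this could be checked (relative tolerance 0.0001). Whether strand was kept is not stated, so overlapping genes may share reads. No per-sample column was left unused.

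Counts of 15464 genes kept by filterByExpr (minimum count 10) were tested with edgeR 4.0.16 (quasi-likelihood F test, TMM scaling, group alone, two-sided, R 4.3.3) with Benjamini-Hochberg adjustment over all genes, and called under 0.05. The procedure was tested on simulated data. CPM is relative to the TMM-scaled library total. Standard errors were derived from F as log2 fold change over its root. Isoform ratios were taken from FPKM without a pseudocount and compared by an exact permutation test (SciPy 1.17.1). Alternatives were DESeq2 1.42.0, other scaling and filters, limma 3.58.1 on log2 FPKM (pseudocount 1 or 0.1, FPKM of at least 0.5 in 3 libraries or no filter), a replicate block, and each library left out. The members and gene lists were chosen with earlier results of these data known. Named genes are all members, the 3 highest and 3 lowest called genes of each pathway list whose higher group reached a mean of 5 CPM, and the muscle forms Eno3, Pgam2 and Pygm; 1 pathway gene and 1 marker are not reported here. Counting precision is not limiting at these depths except below about 1 CPM, where 3 counts amount to 0.0606 to 0.0848 CPM. PCR duplicates are not independent molecules, so that limit covers counting error only.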

Additional observations from a re-analysis of the deposited data

How the results depend on the processing

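Of the 24 called members, 20 kept their call in every alternative that tested them, 4 lost it somewhere (Pdha1, Mpc1, Hif1a and Adm), and 0 changed sign. Scaling by library totals lowered the log2 fold change of the same genes by a median of 0.386 (a shift of -0.386). All genes called then numbered 2291 higher and 6554 lower (25.9% of calls higher, 47.8% with TMM), members 11 higher and 14 lower, and pathway genes 17 and 42. Limma on FPKM, which has the same scaling, gave 2044 genes higher and 6020 lower with pseudocount 1, 2034 and 6016 with 0.1, and 2254 higher and 6263 lower without the filter; pathway genes were 16 higher and 39 lower with either pseudocount, and 15 and 36 without the filter. Changes are best read relative to that shift. Leaving out each library gave 2921 to 3774 genes higher and 2919 to 4108 lower, 12 to 16 members higher and 9 to 11 lower, and 22 to 25 pathway genes higher and 14 to 28 lower, the 14 without conduit replicate 2. Without untreated replicate 1, 16 members were higher and 11 lower.

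Signs turned in 10 members that had not passed. With library totals Hk1 was at -0.22, Tpi1 at -0.14, Eno2 at -0.028 and Pdk2 at -0.27. With limma, Hk1 was at -0.21, Tpi1 at -0.11 and Pdk2 at -0.23 under each of the 3 settings. Pfkfb3, at -0.01 with all libraries, was at 0.0028 with DESeq2, 0.0066 with RLE scaling and 0.0033 with the filter of 5 CPM, and ran from -0.77 to 0.32 with each library left out. With each library left out in turn, Pfkl ran from -0.21 to 0.033, Gapdh from -0.39 to 0.17, Slc16a7 from -0.45 to 0.13, Pdk1 from -0.39 to 0.017, Pdk2 from -0.081 to 0.36 and Egln3 from -1.22 to 0.93, and of the muscle forms Pgam2 from -5.30 to 0.89 and Pygm from -4.64 to 0.81. The positive ends for Gapdh, Egln3, Pgam2 and Pygm came without untreated replicate 1. The 10 isoform ratios kept their direction in all 9 alternatives. The cause of these changes was not tested.

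Libraries with the same replicate number deviated from their group means with correlations of 0.144, -0.0278 and 0.0636, so the numbers are not taken to pair samples, and not every library correlated best with its own number. With the replicate block, 13 members were higher and 11 lower, Slc2a4 passed (adjusted p = 0.0445) and Pdha1 did not (adjusted p = 0.0532).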
